A study of Mus musculus with 4 samples.

Results

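Plexins and neuropilins are the cell surface receptors of semaphorins, and 10 of their genes were examined in DPPIV- and DPPIV+ fibro-adipogenic progenitors (FAPs) of mouse skeletal muscle. The genes were taken by symbol from the 24421 listed in the read counts, as the plexins Plxna1, Plxna2, Plxna3, Plxna4, Plxnb1, Plxnb2, Plxnc1 and Plxnd1 and the neuropilins Nrp1 and Nrp2, and all 10 were listed. Plexins span the membrane and carry an intracellular domain that switches off small GTPases of the R-Ras and Rap type when a semaphorin binds, which reorganizes the cytoskeleton and loosens adhesion. Neuropilins have a short intracellular tail and act as co-receptors, holding the secreted class 3 semaphorins for A-type plexins and also binding vascular endothelial growth factors (VEGFs). These receptors are best known for steering axons and growing blood vessels, and several are also used by stromal and immune cells.

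The 4 libraries came from 2 wild-type mice that had received a CSF1R inhibitor, given in the study's methods as PLX73086 in chow, for 3 weeks and then a regular diet for 3 days. From each mouse, live CD31- CD45- Sca1+ cells, the gate for FAPs, were sorted into DPPIV- and DPPIV+ cells and sequenced as bulk RNA, so every comparison was made within 2 mice (n = 2) and both groups had been treated alike, with no untreated group. The labels give neither the age nor the sex of these mice, and they name the tibialis anterior as the tissue where the protocols describe muscle of both hindlimbs. Between 18240110 and 20879405 reads were counted on genes per library, and a gene with 0 reads could still hold up to 3, or 0.144 to 0.164 CPM (counts scaled to a common library size). Such limits cover counting error only. The sort could be read from Dpp4 itself, which encodes DPPIV, with 728 CPM in mouse 1 and 575 CPM in mouse 2 in the DPPIV+ libraries against 89.8 and 39.7 CPM in the DPPIV- libraries. Pdgfra, Ly6a (which encodes Sca1) and Dcn, markers of FAPs, were each at 962 CPM or more in all 4 libraries. They were not equal between the cell types, as given below with the other markers. CPM values here were scaled by edgeR's TMM factors, and a log2 fold change is that of DPPIV+ over DPPIV- FAPs from a model with mouse and cell type, with its standard error (SE).

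Most of the receptors were lower in DPPIV+ FAPs, while Plxna1 was higher and Plxna3 did not pass the test. A filter of 2 CPM in at least 2 libraries kept 9 of the 10 receptors and 11588 genes in all. Of the 9, 1 was higher and 7 were lower in DPPIV+ FAPs at an adjusted p under 0.05 in edgeR's quasi-likelihood test, in a background in which 15.9% of all genes tested were called higher and 17.2% lower (33.0% in either direction). The median log2 fold change of the 9 was -0.62, against 0.00 (-0.0020) over all genes tested. In DESeq2's Wald test, 1 was higher and 6 were lower, where 7.97% of all genes were called higher and 8.59% lower. The DPPIV+ values of 7 receptors that passed the filter lay below both DPPIV- values, as was the case for 28.6% of all genes tested, and those of 1 lay above both, as for 27.8%. Plxna4 passed the filter only through its DPPIV- libraries, so its being lower was in part set by the filter. In bulk libraries, fewer cells that express a gene and less of its RNA per cell cannot be told apart.

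**Figure D1:**
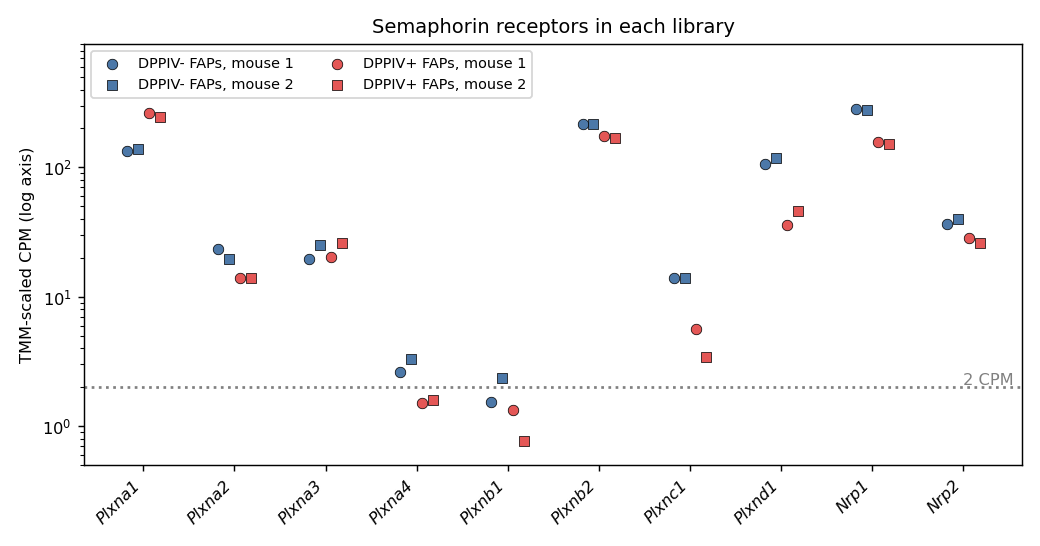
TMM-scaled CPM (log axis) of the 10 receptors in the 4 libraries, with colour for cell type and symbol shape for mouse, and a dotted line at 2 CPM. The DPPIV+ points of Plxna1 lie above its DPPIV- points, those of Plxna3 overlap them, and those of the other receptors lie below them.

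Plxna1 encodes plexin A1, which pairs with neuropilins for class 3 semaphorins and binds class 6 semaphorins directly. It had 135 CPM in mouse 1 and 139.6 CPM in mouse 2 in DPPIV- FAPs, and 263 and 247 CPM in DPPIV+ FAPs. Both DPPIV+ libraries were above both DPPIV- libraries, with little difference between the mice. The log2 fold change was 0.89 (SE 0.07), a 1.86-fold higher level, with an adjusted p of 1.98e-38 in edgeR's test and 5.61e-17 in DESeq2's test. The log2 ratio was 0.96 within mouse 1 and 0.83 within mouse 2, and 96.6% of all genes tested had a lower log2 fold change. Plxna1 (ENSMUSG00000030084.11) lies on chromosome 6 of GRCm38 from 89316314 to 89362620, and 970 of its exon bases are shared with the antisense gene Gm26811, which the counts do not list. Whether the counting used strand is not given in the sources used here.

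The other A-type plexins did not follow Plxna1. Plxna2, which encodes a receptor for class 6 semaphorins and, with neuropilins, for class 3, had 23.3 and 19.5 CPM in DPPIV- FAPs and 13.9 CPM in both DPPIV+ libraries. Its groups did not overlap, and its log2 fold change of -0.62 (SE 0.12) had an adjusted p of 6.28e-07 in edgeR and 0.0245 in DESeq2. Stretches of its transcripts match those of Ppp2r5a over 312 bases at 97.4% identity. Plxna3, which encodes a receptor that works with Nrp2 for Sema3f, had 19.7 and 25.3 CPM in DPPIV- FAPs and 20.4 and 26.1 CPM in DPPIV+ FAPs. For this gene the mice differed more than the cell types, and the log2 fold change of 0.05 had a 95% interval from -0.15 to 0.25 (adjusted p = 0.770, edgeR). Plxna4, known from sensory and sympathetic axons, was near the filter, where 55 and 65 reads in DPPIV- FAPs stood against 27 and 29 in DPPIV+ FAPs. The groups did not overlap, and a log2 fold change of -0.94 (SE 0.28) had an adjusted p of 0.00369 in edgeR but 0.334 in DESeq2. Plxna4 shares 110 exon bases with the antisense gene Plxna4os3.

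B-type plexins are receptors of class 4 semaphorins. Plxnb2, the most widely used of them outside the nervous system, had 217 CPM in both DPPIV- libraries and 175 and 169 CPM in DPPIV+ FAPs. The groups did not overlap, but the difference was the smallest of those called among the receptors, with a log2 fold change of -0.34 (SE 0.07, adjusted p = 2.85e-06 in edgeR and 0.00586 in DESeq2). Plxnb1, the receptor of Sema4d, did not pass the filter. It had 32 and 46 reads in DPPIV- FAPs and 24 and 14 reads in DPPIV+ FAPs, with log2 ratios of -0.20 within mouse 1 and -1.61 within mouse 2, so the groups did not overlap but the mice differed widely. With no filter on low counts, its log2 fold change of -0.86 (SE 0.39) had an adjusted p of 0.106 over 16873 genes in edgeR. Of its exon bases, 257 are shared with the antisense gene Gm7628.

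Plxnc1 and Plxnd1 fell the most. Plxnc1 encodes the receptor of Sema7a and had 13.9 and 14.0 CPM in DPPIV- FAPs and 5.61 and 3.46 CPM in DPPIV+ FAPs. The DPPIV- libraries were nearly equal and both DPPIV+ libraries lay far below them. The log2 fold change was -1.63 (SE 0.17), a 3.09-fold lower level, with an adjusted p of 6.87e-21 in edgeR and 7.08e-07 in DESeq2, and the log2 ratio was -1.30 within mouse 1 and -2.02 within mouse 2. Plxnd1 encodes the receptor that Sema3e binds without a neuropilin, best known from endothelial cells. It had 106 and 118 CPM in DPPIV- FAPs and 35.8 and 46.0 CPM in DPPIV+ FAPs. Its groups were apart by more than the spread between mice, with a log2 fold change of -1.46 (SE 0.07), a 2.75-fold lower level (adjusted p = 3.03e-96 in edgeR and 3.69e-28 in DESeq2). Of all genes tested, 1.82% had a lower log2 fold change than Plxnc1 and 2.37% a lower one than Plxnd1. Plxnc1 shares 115 exon bases with Gm48718 on the same strand, which the counts do not list. A stretch of 51 bases in transcripts of Plxnd1 matches Spag9 at 98.0% identity.

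Both neuropilins were lower in DPPIV+ FAPs. Nrp1, the co-receptor for Sema3a and for VEGF-A, had 283 and 275.5 CPM in DPPIV- FAPs and 157 and 152 CPM in DPPIV+ FAPs. The fall was nearly the same in both mice, with log2 ratios of -0.85 and -0.86 and a fitted log2 fold change of -0.85 (SE 0.07), a 1.81-fold lower level (adjusted p = 7.98e-35 in edgeR and 9.91e-17 in DESeq2). Nrp1 shares 80 exon bases with Mir1903, which had 0 reads in every library. Nrp2, the co-receptor for Sema3f and for the lymphatic growth factor VEGF-C, had 36.7 and 40.2 CPM in DPPIV- FAPs and 28.5 and 25.9 CPM in DPPIV+ FAPs. Its groups did not overlap, with a log2 fold change of -0.50 (SE 0.09, adjusted p = 6.59e-08 in edgeR and 0.0213 in DESeq2). Tested against a 1.5-fold change instead of no change, Plxna1, Plxnc1, Plxnd1 and Nrp1 passed, and Plxna2, Plxna4, Plxnb2 and Nrp2 did not.

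**Figure D2:**
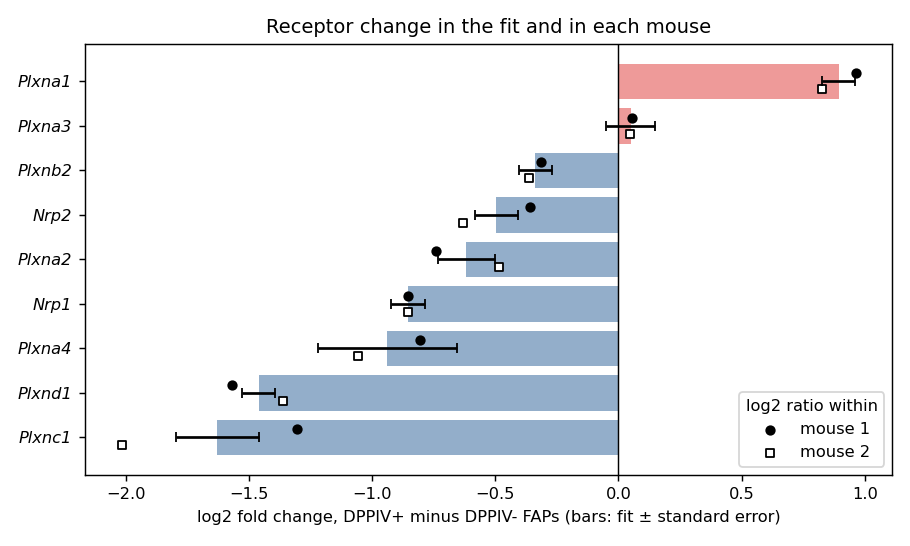
Log2 fold change of DPPIV+ over DPPIV- FAPs for the 9 receptors tested, with bars for the fit, whiskers for its standard error, and points for the log2 ratio within mouse 1 and mouse 2. Both mice gave the same sign for each of the 9, from -1.63 for Plxnc1 to 0.89 for Plxna1 in the fit.

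Promoters are shown for Plxnd1, Plxnc1 and Nrp1, the 3 lowered receptors that passed the test against a 1.5-fold change. Plxna3, which did not pass the threshold, is shown for contrast. RefSeq gave a window of 300 bases on GRCm38.p6, from 250 before to 50 after a gene's start, for 8 of the 10 receptors, without Plxna1 and Plxna4. Capitals mark GC boxes, GGGCGG, and the related box GGGCGTGG of the kind that Kruppel-like factors bind, on either strand, and the windows are chr6:115994956-115995255 (minus strand) for Plxnd1, chr10:94944796-94945095 (minus strand) for Plxnc1, chr8:128358823-128359122 (plus strand) for Nrp1 and chrX:74328816-74329115 (plus strand) for Plxna3.
Plxnd1: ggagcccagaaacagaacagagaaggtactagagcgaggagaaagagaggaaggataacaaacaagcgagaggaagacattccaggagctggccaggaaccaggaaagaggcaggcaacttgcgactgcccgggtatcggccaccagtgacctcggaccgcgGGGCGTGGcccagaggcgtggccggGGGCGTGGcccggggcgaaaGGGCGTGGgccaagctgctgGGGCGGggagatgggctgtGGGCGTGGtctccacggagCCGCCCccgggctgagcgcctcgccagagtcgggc
Plxnc1: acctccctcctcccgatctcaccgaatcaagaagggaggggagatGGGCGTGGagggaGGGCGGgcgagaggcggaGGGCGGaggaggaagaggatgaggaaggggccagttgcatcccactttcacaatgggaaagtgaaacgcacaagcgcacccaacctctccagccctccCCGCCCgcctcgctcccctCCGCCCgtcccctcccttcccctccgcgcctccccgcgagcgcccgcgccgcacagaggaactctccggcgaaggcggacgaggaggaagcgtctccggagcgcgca
Nrp1: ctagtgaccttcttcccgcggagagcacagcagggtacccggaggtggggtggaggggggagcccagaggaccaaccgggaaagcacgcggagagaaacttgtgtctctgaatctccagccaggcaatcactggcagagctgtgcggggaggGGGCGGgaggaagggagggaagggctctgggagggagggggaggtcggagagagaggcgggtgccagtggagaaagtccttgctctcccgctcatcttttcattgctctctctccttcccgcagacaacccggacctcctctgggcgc
Plxna3: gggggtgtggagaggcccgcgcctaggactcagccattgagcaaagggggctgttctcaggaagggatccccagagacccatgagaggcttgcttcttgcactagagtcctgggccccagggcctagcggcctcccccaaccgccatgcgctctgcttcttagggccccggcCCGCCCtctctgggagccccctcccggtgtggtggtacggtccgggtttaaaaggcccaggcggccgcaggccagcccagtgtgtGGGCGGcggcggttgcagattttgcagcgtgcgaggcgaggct
The box GGGCGTGG occurred 4 times in the window of Plxnd1 and 1 time in that of Plxnc1, and in no window of the other 6 receptors. Of 32851 promoter windows in the mouse table, 5.33% held it at least 1 time and 11 held it 4 or more times. GC boxes were in the windows of all 8 receptors, from 1 in Nrp1 to 5 in Plxnb1 and Nrp2, and in 35.7% of all windows. Plxnb2 had 2 windows, with 4 and 3 GC boxes. The receptors' windows held between 61.7% (Plxnb2) and 74.7% (Plxnb1) G and C. The share over all windows was not matched for this, so the 2 cannot be compared as an enrichment. The E-box CACGTG and the TATA box TATAAA, which 7.15% and 13.6% of all windows held, matched in none of the receptors' windows. GGGCGG and GGGCGTGG can share bases only at their ends, neither holds the other, and a match describes the letters only.

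Levels of different receptors were compared per length, as CPM per kilobase of all annotated exon bases. In DPPIV- FAPs, Nrp1 had a level of 28.6 ± 0.576 (SD, n = 2) and Plxnb2 of 28.1 ± 0.0239, which did not differ beyond their spread, followed by Plxnd1 with 15.4 ± 1.16 and Plxna1 with 15.2 ± 0.357, which did not differ beyond theirs. Nrp2 (3.25), Plxna3 (2.85), Plxnc1 (1.67) and Plxna2 (1.25) came next, and Plxna4 (0.211) and Plxnb1 (0.202) were lowest. The values of Nrp2 and Plxna3 overlapped, as did those of Plxna4 and Plxnb1. In DPPIV+ FAPs, Plxna1 had the highest level, 28.2 ± 1.24, above Plxnb2 with 22.3 ± 0.577, Nrp1 with 15.8 ± 0.348 and Plxnd1 with 5.61 ± 0.988, and these 4 did not overlap. Plxna3 (2.95), Nrp2 (2.30), Plxna2 (0.812) and Plxnc1 (0.543) followed without overlap, and Plxna4 and Plxnb1 (both 0.110) were again lowest and overlapped. The place of Nrp1 depends on the length used, since its exons cover 9785 bases in all and its longest annotated transcript 3645. With the longest transcripts, Nrp1 was first in both cell types, with 76.7 ± 1.55 in DPPIV- FAPs and 42.4 ± 0.935 in DPPIV+ FAPs, and Plxna1 was second in DPPIV+ FAPs with 28.3 ± 1.24.

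Summed over the 8 plexins, the level per kilobase was 63.5 and 66.2 in the DPPIV- libraries (mouse 1, then mouse 2) and 61.0 and 60.2 in the DPPIV+ libraries. The sum was lower in both DPPIV+ libraries by a small amount, while its makeup differed by more. Plxna1 made up 23.5% and 23.3% of it in DPPIV- FAPs and 47.7% and 45.4% in DPPIV+ FAPs, and Plxnd1 22.9% and 24.4% against 8.05% and 10.5%. Without Plxna1, the plexin sum was 48.6 and 50.8 in DPPIV- FAPs and 31.9 and 32.9 in DPPIV+ FAPs. The 2 neuropilins summed to 32.1 and 31.6 in DPPIV- FAPs and 18.5 and 17.7 in DPPIV+ FAPs, and Nrp1 made up between 86.9% and 90.3% of that sum in all 4 libraries.

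**Figure D3:**
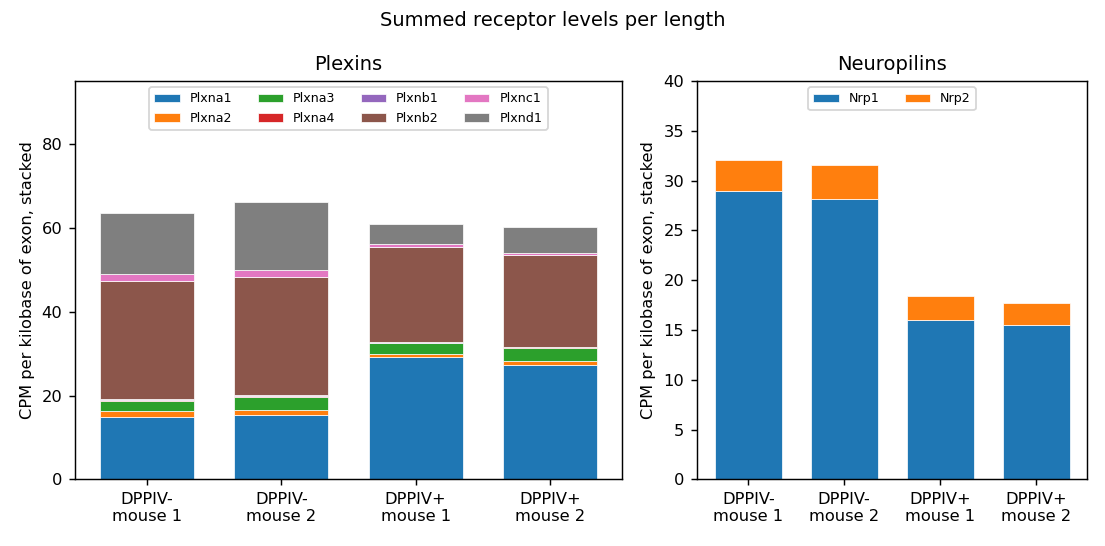
Stacked levels of the plexins (left) and neuropilins (right) in each library, in CPM per kilobase of exon. The plexin stacks end between 60.2 and 66.2 with a larger part from Plxna1 in DPPIV+ FAPs, and the neuropilin stacks drop from 32.1 and 31.6 to 18.5 and 17.7.

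The genes whose values over the 4 libraries lay closest to those of Plxna1, by Euclidean distance of log2 CPM centred on each gene's mean, were Dact1 (distance 0.0262), Trio (0.0369) and Clip1 (0.0452). With 4 libraries such profiles were common, and 94 genes lay within 0.2 of Plxna1. For Plxnc1 the closest were Id4 (0.117), Fam65c (0.210) and Mdfi (0.213), and 1 gene lay within 0.2. Among the receptors themselves, Plxnb2 and Nrp2 were the closest pair (0.193), followed by Plxna4 and Nrp1 (0.279) and by Plxna2 and Nrp1 (0.288), and Plxna1 lay closest to Plxna3 (0.926).

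Semaphorins, the ligands of these receptors, moved in both directions. Of 20 semaphorins, 17 passed the filter, of which 6 were higher and 5 lower in DPPIV+ FAPs in edgeR's test (6 and 4 in DESeq2). Over all genes tested, edgeR called 15.9% higher and 17.2% lower, and DESeq2 7.97% and 8.59%. The median log2 fold change of the 17 was -0.06. Except for the transmembrane Sema4c, the 6 that rose were secreted class 3 semaphorins, led by Sema3e with a log2 fold change of 3.89 (SE 0.18), Sema3c with 2.14 (SE 0.07) and Sema3a with 2.10 (SE 0.23). Sema3e had 2.25 and 0.92 CPM in DPPIV- FAPs and 29.2 and 17.7 CPM in DPPIV+ FAPs, and Sema3a 2.39 and 1.53 against 7.44 and 9.55 CPM. Sema3e and Sema3a passed the filter only with their DPPIV+ libraries, so their being higher was in part set by the filter. The largest falls were those of Sema7a at -1.99 (SE 0.15), Sema3f at -1.17 (SE 0.22) and Sema5a at -1.03 (SE 0.07). Set beside their receptors, Sema3e rose where Plxnd1 fell, Sema7a and Plxnc1 both fell, and Sema3f and its co-receptor Nrp2 both fell. Sema6d, a ligand of plexin A1, fell with a log2 fold change of -0.42 (SE 0.08) where Plxna1 rose. Sema4c, a ligand of plexin B2, rose by 0.34 (SE 0.07) where Plxnb2 fell by 0.34 on the same log2 scale.

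Class 3 semaphorins reach most of their receptors through neuropilins, so their summed levels were set side by side. Per kilobase of exon, the 7 class 3 semaphorins summed to 51.9 and 47.2 in DPPIV- FAPs and 217 and 201 in DPPIV+ FAPs. Relative to the neuropilin sum, this was 1.62 and 1.49 in DPPIV- FAPs and 11.7 and 11.3 in DPPIV+ FAPs. Most of it was Sema3c, without which the ratios were 0.288 and 0.292 in DPPIV- FAPs and 1.78 and 1.75 in DPPIV+ FAPs. These ratios depend on the lengths used. With the longest transcripts, chosen as an alternative after seeing the data, they were 0.821 and 0.763 in DPPIV- FAPs and 6.02 and 5.81 in DPPIV+ FAPs, and without Sema3c 0.154 and 0.158 against 0.970 and 0.958. The ratio is one of RNA levels within sorted cells, and protein was not measured in these libraries.

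Other surface partners of plexins and neuropilins were a list of 15 genes, of which 11 passed the filter, 2 were higher and 5 lower (2 and 3 in DESeq2). The shares called over all genes tested were 15.9% higher and 17.2% lower (7.97% and 8.59% in DESeq2). The median log2 fold change of the 11 was -0.48. Met, the hepatocyte growth factor receptor that pairs with B-type plexins, rose from 2.44 and 1.74 CPM in the DPPIV- libraries to 10.4 and 9.05 CPM in the DPPIV+ libraries, by 2.22 (SE 0.22) on the log2 scale. Met passed the filter only with its DPPIV+ libraries, so its being higher was in part set by the filter. Its relative Mst1r rose by 0.67 (SE 0.07) on the same scale. Ptk7, a co-receptor of plexin A1, had 16.5 and 22.6 CPM in the DPPIV- libraries and 3.67 and 4.83 CPM in the DPPIV+ libraries, with log2 ratios of -2.17 and -2.23 within the mice. Chl1, an adhesion protein that binds neuropilin 1, fell by 2.09 (SE 0.18). Plxdc1, which encodes a plexin domain-containing protein that is not a plexin, fell by 0.74 (SE 0.14). Plxnb3, the plexin outside the list described here, had between 1 and 5 reads per library. Kdr and Flt1, the VEGF receptors that work with neuropilins, were called lower by edgeR (adjusted p = 0.0143 and 3.00e-06) and not by DESeq2 (adjusted p = 0.541 and 0.0880). The log2 ratio of Kdr was -0.95 within mouse 1 and 0.10 within mouse 2, and that of Flt1 was -1.22 and -0.17.

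Of the VEGF ligands, which share neuropilins with the semaphorins, 5 were listed and tested, 4 higher and 1 lower (1 and 1 in DESeq2). The shares over all genes tested were 15.9% higher and 17.2% lower (7.97% and 8.59% in DESeq2). Figf, the listed symbol of VEGF-D, rose by 2.38 (SE 0.08) and Vegfc fell by 1.17 (SE 0.15) on the log2 scale in both tools, while Pgf (0.41, SE 0.09), Vegfb (0.32, SE 0.11) and Vegfa (0.31, SE 0.07) were called by edgeR and not by DESeq2 (adjusted p = 0.153, 0.434 and 0.0507). Of 34 intracellular partners of plexins and neuropilins, 31 passed the filter, 11 were higher and 7 lower (5 and 6 in DESeq2), beside the same shares over all genes of 15.9% and 17.2% (7.97% and 8.59% in DESeq2). The median log2 fold change of the 31 was 0.06. The largest rises were those of Rras2, a GTPase of the R-Ras group, at 1.69 (SE 0.12), Fyn, a kinase in semaphorin signalling, at 0.91 (SE 0.07) and Rnd1, a GTPase that binds plexins, at 0.55 (SE 0.21), the last with an adjusted p of 0.462 in DESeq2. The largest falls were those of Rhod, another plexin-binding GTPase, at -1.68 (SE 0.28), which passed the filter only through its DPPIV- libraries, Pak1, a kinase that acts on the cytoskeleton, at -1.09 (SE 0.12) and Mical2, of the actin-oxidizing MICAL enzymes, at -0.75 (SE 0.08).

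**Figure D4:**
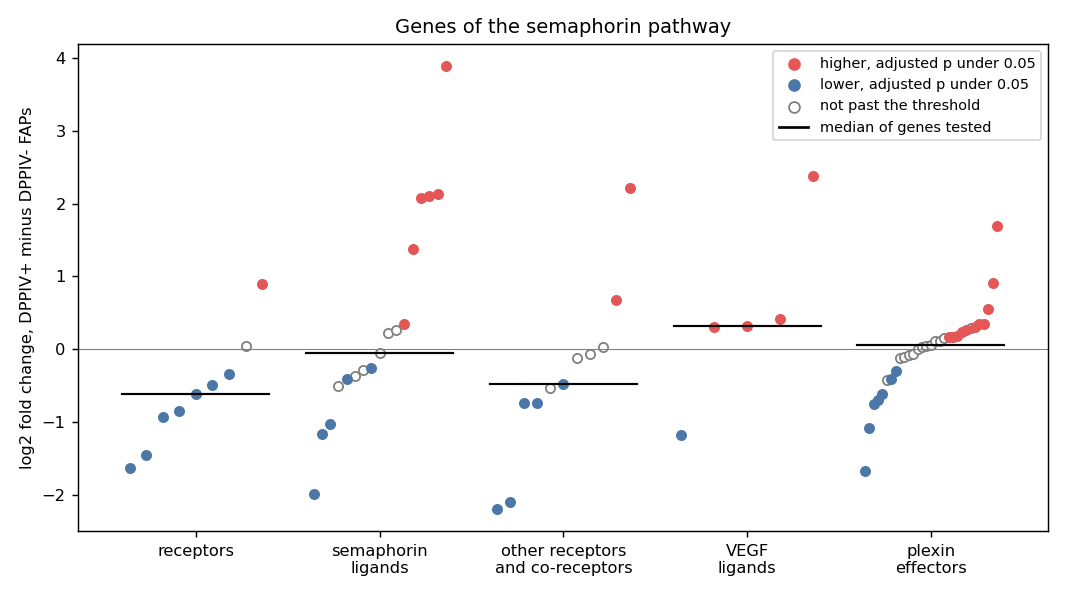
Log2 fold change of DPPIV+ over DPPIV- FAPs for the genes tested in each list, ordered within the list, filled where the adjusted p of edgeR's test was under 0.05, with a line at each median. The receptor median lies at -0.62, and those of the other 4 lists at -0.06, -0.48, 0.32 and 0.06 from left to right.

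Several receptors are also abundant in endothelial cells, macrophages and mural cells, and markers of these cells moved in part with the receptors. Beside the marker counts below, the shares called over all genes tested were 15.9% higher and 17.2% lower (7.97% and 8.59% in DESeq2). Of 8 blood endothelial markers, 7 were tested, 5 lower and 1 higher in edgeR's test, and 0 lower and 1 higher in DESeq2's test (1 at an unadjusted p under 0.05). Their summed level was 188 to 257 CPM in DPPIV- FAPs and 463 to 508 CPM in DPPIV+ FAPs, most of it from Tek, which rose from 187 and 149 to 467 and 427 CPM. The defining marker Pecam1 had 20.4 and 11.2 CPM in DPPIV- FAPs and 11.7 and 11.2 CPM in DPPIV+ FAPs, so that its log2 ratio was -0.80 within mouse 1 and 0.00 (-0.0005) within mouse 2. In mouse 2 the log2 ratios of the 7 tested markers ran from -0.57 (Egfl7) to 1.52 (Tek), or to 0.10 (Kdr) without Tek, with Cdh5 at -0.32. Those of Plxnb2 (-0.36) and Plxna2 (-0.49) lay within this range, and those of Nrp2 (-0.63), Nrp1 (-0.86), Plxna4 (-1.06), Plxnd1 (-1.36) and Plxnc1 (-2.02) lay below it. In mouse 1 the same markers ran from -1.80 (Esam) to 1.32 (Tek), or to -0.307 (Emcn) without Tek, with Cdh5 at -0.33. All lowered receptors lay within that range with Tek or without it, the highest being Plxnb2 (-0.313). Macrophage markers, 5 lower and 0 higher of 8 tested by edgeR (7 at an unadjusted p under 0.05) and 0 called by DESeq2 (2 at an unadjusted p under 0.05), summed to 222 to 377 CPM in DPPIV- FAPs and 211 to 238 CPM in DPPIV+ FAPs. The log2 ratio of their sum was -0.66 within mouse 1 and -0.07 within mouse 2. Mural markers were lower in sum in both mice. Of 6 tested, 5 were lower and 0 higher (3 and 0 in DESeq2), and their sum was 121 to 123 CPM in DPPIV- FAPs and 51.2 to 63.5 CPM in DPPIV+ FAPs. Cspg4 gave 63.4 and 76.0 CPM of that sum in DPPIV- FAPs and 22.7 and 35.9 CPM in DPPIV+ FAPs. Notch3 and Cspg4 had log2 fold changes of -1.60 and -1.27, and the rest ran from -1.32 (Kcnj8) to -0.28 (Myh11), with Rgs5 at -0.42. The part of endothelial, macrophage and mural RNA in the fall of the receptors was not tested.

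**Figure D5:**
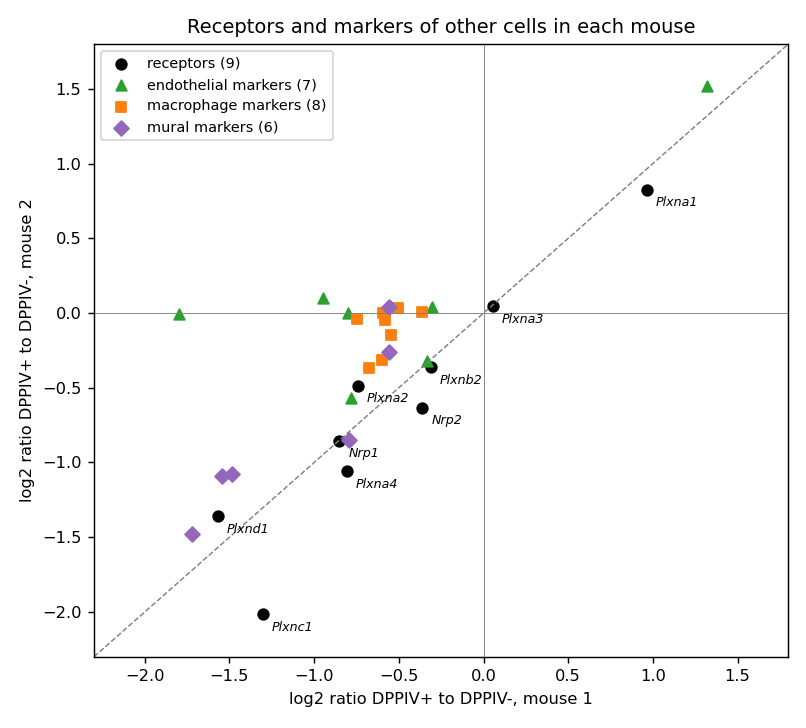
Log2 ratio of DPPIV+ to DPPIV- FAPs in mouse 1 (horizontal) against mouse 2 (vertical) for the receptors and for markers of endothelial cells, macrophages and mural cells that passed the filter, with a dashed line of equality. The macrophage markers lie between -0.37 and 0.03 in mouse 2, Plxnb2 (-0.36) lies within that range, and the other lowered receptors lie below it. In mouse 1 the macrophage markers lie between -0.75 and -0.36, a range that holds Plxna2 (-0.74). The mural markers lie between -1.72 and -0.56 in mouse 1 and between -1.48 and 0.04 in mouse 2. In mouse 2 the lowered receptors other than Plxnc1 (-2.02) lie within the mural range. In mouse 1 it holds Plxna2 (-0.74), Plxna4 (-0.81), Nrp1 (-0.85), Plxnc1 (-1.30) and Plxnd1 (-1.57). Nrp2 (-0.36) and Plxnb2 (-0.31) lie above it in that mouse.

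The other lists held fewer reads or moved differently. Here too the shares over all genes tested were 15.9% higher and 17.2% lower (7.97% and 8.59% in DESeq2). Lymphatic markers, with 2 of 5 tested and 0 called by edgeR (1 at an unadjusted p under 0.05) or DESeq2 (0), summed to 4.44 to 8.05 CPM in all 4 libraries, with Ccl21a at 0 reads in each. Glial markers, with 1 higher and 1 lower of 4 tested (0 and 1 in DESeq2, with 2 at an unadjusted p under 0.05), summed to 23.3 to 30.4 CPM, and muscle markers, with 0 of 3 called by edgeR or DESeq2 (0 at an unadjusted p under 0.05 in either), to 30.7 to 49.8 CPM. Tenocyte markers, with 4 higher and 1 lower of 5 tested (4 and 0 in DESeq2, with 4 at an unadjusted p under 0.05), summed to 1798 to 2391 CPM in DPPIV- FAPs and 1902 to 3767 CPM in DPPIV+ FAPs. Thbs4, the 1 called lower, gave 1602 and 2096 CPM of that sum in DPPIV- FAPs and 1153 and 2217 CPM in DPPIV+ FAPs. Fmod rose by 2.26 and Tnmd by 1.27 on the log2 scale. Scx (2.14) and Mkx (1.44) rose too, and passed the filter only with their DPPIV+ libraries. The part of each in the receptors' values was not tested. The FAP markers also differed, with 2 higher and 4 lower of 7 tested (2 and 4 in DESeq2). Lum (-0.85), Col1a1 (-0.40), Pdgfra (-0.38) and Dcn (-0.28) had lower log2 fold changes and Col3a1 (-0.16) was not called. Ly6a (0.58) and the sorting marker Dpp4 (3.41) were higher. Whether these differences bear on the receptors was not tested.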

How the data were processed

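Each of 2 mice gave 1 RNA library of DPPIV- FAPs and 1 of DPPIV+ FAPs. Paired-end reads were demultiplexed by the authors (bcl2fastq 2.20), who aligned them to mm10 with STAR, counted them on genes with RnaReadCounter and deposited raw read counts per gene symbol, without normalization or a filter. The labels name the NEBNext Ultra II kit and the paper's methods the TruSeq Stranded kit, and the annotation used is not given in the sources used here.

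Counts were analysed in R 4.3.3 with edgeR 4.0.16 (TMM normalization, a minimum of 2 CPM in 2 or more libraries, mouse and cell type in the model, quasi-likelihood F test, two-sided, Benjamini-Hochberg adjustment over all 11588 genes tested, threshold 0.05). The model leaves 1 residual degree of freedom and edgeR's estimate of the prior degrees of freedom was infinite. The spread of each gene was therefore that of the trend over abundance, and p-values of abundant genes are very small. An SE is the size of the log2 fold change over the square root of F. DESeq2 (here 1.42.0; the authors used the same tool in an earlier version) was an alternative, with 9 others that the closing section names. Ratios within a mouse used a prior count of 0.125. The tests of edgeR and DESeq2 were first run on simulated counts with no difference between mice, where a limit on false calls was set for DESeq2 only. That run therefore sets no bound on the false calls of edgeR's test and does not vouch for its p-values here.

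The labels give each animal to 1 library of each cell type, so mouse was a block. Over 11588 genes (not independent of each other), the difference between the mice in DPPIV- FAPs correlated with that in DPPIV+ FAPs at 0.434. Lengths, positions and overlaps are from GENCODE M21 (GRCm38), and similar transcripts from BLAST 2.17.0 (at least 97% identity over 50 bases). The receptors and the lists were chosen with earlier results of these data known. Named genes are the 10 receptors, known partners of a receptor described, in each pathway list the 3 highest and 3 lowest log2 fold changes among genes called, the 3 genes closest in profile to the receptors with the highest and the lowest log2 fold change (Plxna1 and Plxnc1), Dpp4 and the leading genes of the marker lists.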

Additional observations from a re-analysis of the deposited data

How the results depend on the processing

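The counts of 1 receptor higher and 7 lower stayed within 1.5 times under the alternatives with both mice, except that 3 were lower in a test against a 1.5-fold change. These alternatives were DESeq2's Wald test, the likelihood ratio test, that fold test, robust moderation, normalization by RLE or by the upper quartile, a fit with no mouse block, all genes unfiltered, 2 CPM required in 3 libraries, and, added after seeing the data, offsets for GC content and length with the mouse block. Plxna1, Plxnc1, Plxnd1 and Nrp1 passed in all 10, and Plxna3 in none. The adjusted p of Plxna4 was 0.0529 without the mouse block (edgeR), 0.334 in DESeq2 and 0.303 in the fold test. Removing the block changed the call of no other receptor. Without mouse 1 or without mouse 2 there is 1 library per cell type and no test, and the 9 signs were the same in each mouse. Over all genes, 1837 higher and 1989 lower became 923 and 995 in DESeq2, 436 and 656 in the fold test, and 1001 and 1119 without the block. In the fold test, 3 semaphorins were lower, 1 of the other receptors was higher and 2 lower, 1 VEGF ligand was higher, and 2 effectors were higher and 3 lower. Of the other receptors, 3 were lower in DESeq2 and 3 without the block. For VEGF ligands, 1 was higher in DESeq2 and 1 without the block. Effectors called higher were 5 in DESeq2, 4 without the block and 7 with upper-quartile normalization. The summed receptor level per kilobase in DPPIV- FAPs was 96.7 with all exon bases, from 95.5 to 97.8 when a mouse was left out, and 155 with the longest transcripts, which for Nrp1 leave out exon bases of others. Other causes of these changes were not tested. With 2 mice per cell type, the depth limits Plxna4 and Plxnb1, which had at most 65 reads per library.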
